A study of Mus musculus with 6 samples.

Results

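Gene expression in serum-starved, unstimulated ID8 cells was read from the 3 arrays whose titles name ID8 without stimulation, out of 6 arrays in the series. ID8 is an established mouse ovarian cancer line, and all values come from that 1 line in culture, with no host tissue. The study asked how omental macrophages draw ovarian cancer cells into the omentum and used these arrays as the untreated arm for the chemokine CCL6. Cells of every array were kept without serum for 24 h, and the other 3 arrays, which are not used here, received 200 ng/mL of CCL6 for 6 h. The unstimulated arm carried no added chemokine, and neither arm is given an engineered allele in the labels. The labels call the 3 unstimulated samples biological replicates, and their number limits the precision of every value. Growth medium before starvation was serum-containing, but the labels and the study's methods differ in its serum share, and the methods add insulin, transferrin and selenium. RNA was hybridised to Clariom S mouse arrays, which hold short probes for known mouse transcripts and give 1 summarised value for a set of probes.

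The ovary is covered by a single layer of surface epithelium that is continuous with the peritoneal mesothelium and, unlike most epithelia, carries mesenchymal proteins beside keratins. ID8 cells descend from this layer, whereas many human high-grade serous cancers are traced to the oviduct, whose epithelium derives from the Müllerian duct. Serum withdrawal removes growth factors, lipids and lipoproteins, and in many cultured cells it slows division and raises the synthesis of sterols.

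The table held 22206 probe sets, of which 19572 carried 1 gene symbol, 0 carried several and 2634 are unnamed here. The named probe sets stood for 19505 genes, and for a gene on more than 1 probe set the brightest was taken. Values ran between 1.93 and 19.19, a range from which the log base was taken as 2, since the sources do not state it, and 1 unit is then a factor of 2 in signal. A background was set by the genes of olfactory receptors, the odour sensors of the nose, which ovarian cells are not known to use. Their 1091 probe sets had a median of 3.66 over the 3 arrays, and the 95th percentile, 4.83, is called the olfactory level. A gene was counted as above the level where it exceeded 4.83 on each of the 3 arrays. By that rule 11429 of 22206 probe sets (51.5%) were above the level, 8462 exceeded it on 0 arrays, 1484 on 1 array and 831 on 2 arrays. The level is no sharp border, since 2347 genes had a mean within 0.5 of it. A gene that is not above the level may be silent or may have probes that respond weakly, and these cannot be told apart on an array.

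**Figure D1:**
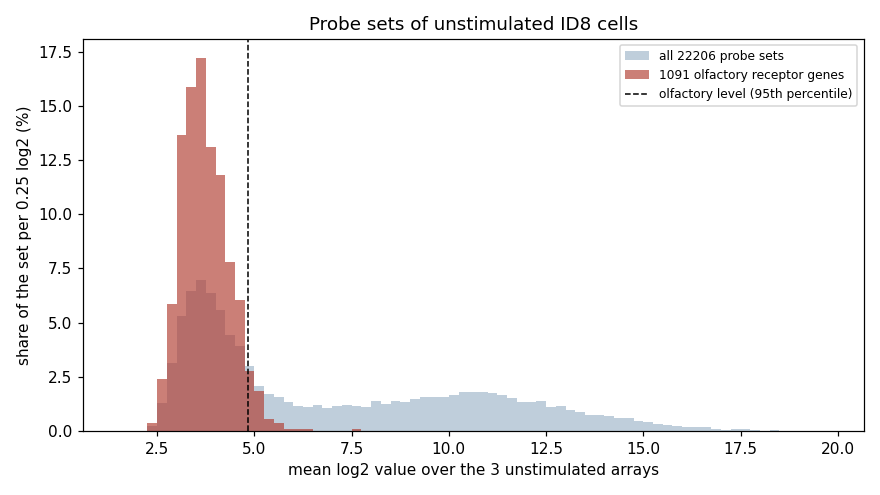
Share of probe sets (y axis, percent of each set per 0.25 log2) against the mean log2 value over the 3 unstimulated arrays (x axis), for all 22206 probe sets and for the 1091 olfactory receptor genes, with the olfactory level of 4.83 as a dashed line. Olfactory receptors form 1 narrow peak around their median of 3.66, which overlies the dim peak of all probe sets, and all probe sets have a second broad peak to the right of the line.

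Brightness depends on the probes as well as on the RNA, so the rank of a gene orders probe sets and not amounts of transcript. The 55 genes on more than 1 probe set show how far this goes, since their brightest and dimmest probe sets lay 0.59 apart at the median, 3.86 at the most, and over 1 apart for 20 of the 55 genes. In 4 of these genes 1 probe set was above the olfactory level and another was not. All values are in log2 units, 3 values in a row are replicates 1, 2 and 3, and ± is the SD over these 3 arrays (n = 3). Genes described as further members, and those named because a count was 5 or less, were picked after their values had been seen.

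The brightest named gene was Eef1a1, which encodes the elongation factor that brings transfer RNA to the ribosome, at 18.99 ± 0.06. It was followed by Serinc3, a membrane protein gene, at 18.60 ± 0.22, and by Sparc, a secreted collagen-binding protein gene, at 18.39 ± 0.13. Of the 30 brightest genes, among which 1 predicted gene was passed over, 8 encode proteins of translation or RNA binding. Besides Eef1a1 these are the ribosomal protein genes Rps6 (17.88 ± 0.06), Rplp1 (17.80 ± 0.15), Rpl41 (17.66 ± 0.26), Rpl21 (17.52 ± 0.13) and Rps23 (17.50 ± 0.23), the poly(A)-binding protein gene Pabpc1 (17.76 ± 0.28) and the cold-inducible RNA-binding protein gene Rbm3 (17.55 ± 0.05). Rmrp, the RNA of the RNase MRP particle, had the widest spread among the 30, at 18.06, 17.68 and 17.05.

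Cytoskeletal genes in the same range were Actb, the cytoplasmic actin, at 18.14 ± 0.21, the intermediate filament gene Vim at 17.75 ± 0.20, and the alpha-tubulin genes Tuba1b and Tuba1c at 17.58 ± 0.15 and 17.51 ± 0.28. Metabolic genes were the glycolytic enzyme Gapdh at 17.97 ± 0.14, the cytochrome oxidase subunit Cox6a1 at 17.89 ± 0.04, and 3 genes tied to iron or redox, the ferritin heavy chain Fth1 (17.68 ± 0.17), the peroxidase Prdx2 (17.56 ± 0.12) and the reductase Cyb5r3 (17.73 ± 0.07). The endoplasmic reticulum was represented by the oligosaccharyltransferase subunits Dad1 and Ost4 and the chaperone Calr, with means between 17.68 and 18.35. A pair of fatty acid desaturase genes completed the metabolic set, Scd1 at 17.60, 17.60 and 17.41 and Fads2 at 17.11, 17.49 and 18.06. Scd1 differed little between arrays, whereas Fads2 was lowest in replicate 1 and highest in replicate 3.

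Membrane, secreted and calcium-binding proteins made up the rest of the 30. The tetraspanin gene Cd81 read 18.35 ± 0.13, the tetraspanin-related Tm4sf1 read 17.60 ± 0.10, the galectin gene Lgals1 read 18.02 ± 0.25 and the calcium-binding S100a11 read 17.79 ± 0.22. Upk3b, a uroplakin gene known as a mesothelial marker, ranked 8 of 19505 genes at 17.71, 17.81 and 18.39. It was the only one of the 10 brightest genes that belonged to the list of ovarian surface and mesothelial genes. Among the 100 brightest probe sets 29 are unnamed here, so that the named order leaves out many bright probe sets.

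**Figure D2:**
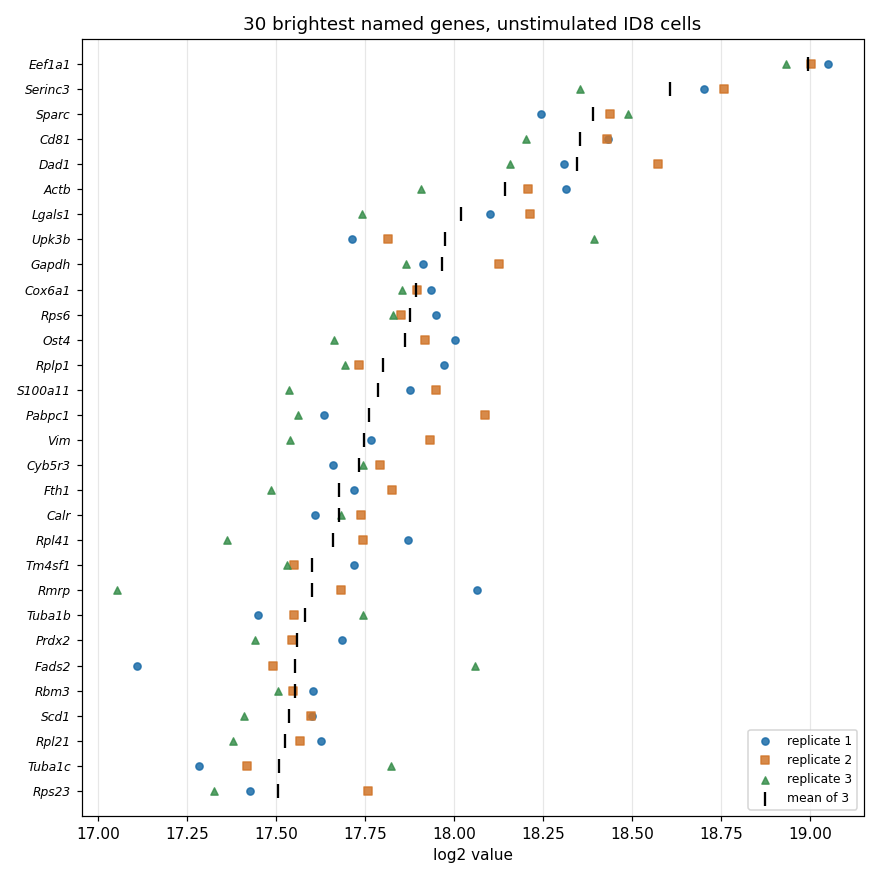
Log2 values (x axis) of the 30 brightest named genes (rows, brightest at the top) in each of the 3 unstimulated arrays, with the mean of 3 as a black tick. The genes' means lie between 17.50 and 18.99, and Rmrp, Fads2 and Upk3b have the widest spread between arrays.

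Promoter sequence is shown for 3 genes that stand for the ends of this order, namely the brightest gene, the brightest ovarian surface and mesothelial gene and an olfactory receptor gene at the family's median brightness. The sequences are RefSeq's, on GRCm38.p6, and run 250 bases 5′ to 3′ on the gene's strand up to the base before its annotated start. Capitals mark every CG dinucleotide, the site of DNA methylation in mammals, which clusters at the promoters of many widely used genes. Eef1a1 lies on the minus strand at chr9:78481725-78481974 and holds 18 CG, Upk3b on the plus strand at chr5:136038246-136038495 holds 2, and Olfr110 on the plus strand at chr17:37492218-37492467 holds 0.
Eef1a1: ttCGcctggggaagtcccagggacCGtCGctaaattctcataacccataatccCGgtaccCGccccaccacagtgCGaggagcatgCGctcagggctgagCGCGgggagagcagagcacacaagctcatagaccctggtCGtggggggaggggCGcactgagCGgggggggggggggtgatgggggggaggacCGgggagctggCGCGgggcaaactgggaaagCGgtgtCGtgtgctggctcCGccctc
Upk3b: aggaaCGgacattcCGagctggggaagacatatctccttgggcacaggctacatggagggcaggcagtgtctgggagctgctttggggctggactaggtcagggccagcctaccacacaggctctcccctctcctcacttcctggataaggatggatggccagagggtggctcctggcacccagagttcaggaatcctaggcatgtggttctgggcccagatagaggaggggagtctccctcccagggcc
Olfr110: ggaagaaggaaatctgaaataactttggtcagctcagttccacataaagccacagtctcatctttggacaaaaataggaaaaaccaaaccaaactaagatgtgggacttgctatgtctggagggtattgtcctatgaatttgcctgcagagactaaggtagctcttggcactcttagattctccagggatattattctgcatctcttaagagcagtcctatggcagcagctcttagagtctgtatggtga
Olfr110 read 3.81, 3.74 and 3.42 on these arrays. Of the 3, the widely used gene had the most CG and the receptor gene the fewest, and both CG of the Upk3b stretch lie near its 5′ end.

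Over all protein-coding genes with a promoter in the table (15488 of 19107), the CpG ratio was computed over 300 bases, from 250 before the start to 50 after it. The ratio is the count of CG times the length over the product of the counts of C and G, and CG met by chance alone gives 1. Its median was 0.763 for the 100 brightest genes, 0.791 for the next 900 and 0.780 for the other genes above the olfactory level. The median over all genes was 0.607, and that of olfactory receptor genes was 0.105. The 3 bright tiers thus had close medians and all lay above that of all genes. The letters TATAAA, searched on both strands, with no other motif searched, occurred in 16.0% of promoters of the 100 brightest genes, 8.61% for the next 900, 527 of 7528 for the other genes above the level, 13.2% of all and 41.1% of olfactory receptor promoters. For genes not above the level fewer than 80% had a promoter in the table, and no value is given for them.

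Families of one function or one symbol root fell into a bright and a dim set. Cytosolic ribosomal protein genes were above the olfactory level in 61 of 64 cases, against 51.5% of all probe sets, with a median of 15.57, and 15 of them were among the 100 brightest genes. The 3 that were not above it, Rps4l (4.13 ± 0.18), Rpl39l (4.04 ± 0.25) and Rpl3l (2.81 ± 0.09), are variants of ribosomal proteins, of which Rpl3l is known from striated muscle and Rpl39l from testis. Mitochondrial ribosomal protein genes were above the level in 74 of 76 cases with a lower median of 10.59 and Mrpl33 as the brightest (15.20 ± 0.76). Proteasome subunit genes numbered 34 of 38 above the level (median 13.00, Psmb1 15.13 ± 0.23), oxidative phosphorylation subunit genes 74 of 79 (median 12.71, Cox6a1) and splicing factor genes 48 of 49 (median 12.12, Hnrnpk 17.21 ± 0.25).

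Translation factor genes were above the level in 56 of 61 cases, chaperonin and heat shock protein genes in 61 of 75, with Hspa5, the main chaperone of the endoplasmic reticulum, the brightest at 17.47 ± 0.17, and tubulin genes in 19 of 23. Histone genes spread over the whole scale, with 59 of 85 above the level and H2ac22 as the brightest (16.82 ± 0.34). Their copies are near-identical and probes may not separate them, since the further members H3c14 and H3c15 had the same 3 values, 16.46, 16.68 and 17.13. Zinc finger genes named Zfp were above the level in 278 of 358 cases but with a modest median of 7.82. Solute carrier genes split around the level, with 173 of 375 above it, and Slc3a2, the shared heavy chain of several amino acid transporters, was the brightest at 16.88 ± 0.08.

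Few sensory receptor genes were above the level, which for olfactory receptors follows from how it was set. Above the level were 0 of 38 taste receptor genes and 0 of 15 trace amine receptor genes, 17 of 1091 olfactory receptor genes and 14 of 321 vomeronasal receptor genes. Single members of these families were nevertheless bright. Vmn2r29, a vomeronasal receptor gene, read 11.80, 11.42 and 10.80, and Vmn2r47 and Vmn2r36 read 7.61 ± 0.25 and 6.62 ± 0.44. The pseudogene Olfr1372-ps1 was the brightest of the olfactory family at 7.38, 8.19 and 7.57, followed by Olfr1029 (6.37 ± 0.72) and Olfr175 (6.08 ± 0.29).

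Families tied to a body region or a differentiated tissue showed a few bright members over a dim majority. Of Hox genes, the transcription factors that mark position along the body axis, 12 of 33 were above the level, led by Hoxa10 (9.03, 8.85 and 9.51), Hoxc6 (9.16, 8.73 and 8.08) and Hoxd8 (7.28, 7.47 and 8.52). Among keratins it was 5 of 49, namely Krt19, Krt18 and Krt8 of simple epithelia, Krt80 (8.74 ± 1.11) and Krt12 (5.15 ± 0.30). Claudins, the sealing proteins of tight junctions, gave 4 of 23, with Cldn15 at 14.31, 14.41 and 15.77, Cldn12 at 10.26, 10.31 and 10.81 and Cldn2 at 6.66, 7.06 and 6.12. Cytochrome P450 genes gave 15 of 97, with Cyp2s1 (16.06 ± 0.31), Cyp1b1 (13.66 ± 0.10), an enzyme of estrogen and xenobiotic metabolism, and Cyp20a1 (12.47 ± 0.14) above 12. This family was set by symbol and left out Cyp51, a brighter P450 gene that is described with sterol synthesis below.

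The remaining dim families also held few members above the level. Voltage-gated potassium and sodium channel genes were above the level in 4 of 46 cases, among them the beta subunit Kcnab1 (13.81 ± 0.14) and Kcnh2 (12.02 ± 0.41), which encodes the channel known as hERG in humans. PRAME-like genes, which are mostly used in germ cells and early embryos, gave 2 of 34, with Pramel12 at 10.54, 11.03 and 10.31. Serpins gave 13 of 55 (Serpinb6b 14.77 ± 0.13), defensins 11 of 61 (Defb25 6.53 ± 1.11), keratin-associated proteins 4 of 50 (Krtap4-8 7.06 ± 0.29), clustered protocadherins 3 of 20 (Pcdhb17 5.66 ± 0.16), interferon alpha genes 1 of 12 (Ifna5 6.68 ± 0.50) and Rhox genes 1 of 11 (Rhox5 5.18 ± 0.28). Apart from Serpinb6b, the brightest members in this last group of families had means less than 3 above the level.

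**Figure D3:**
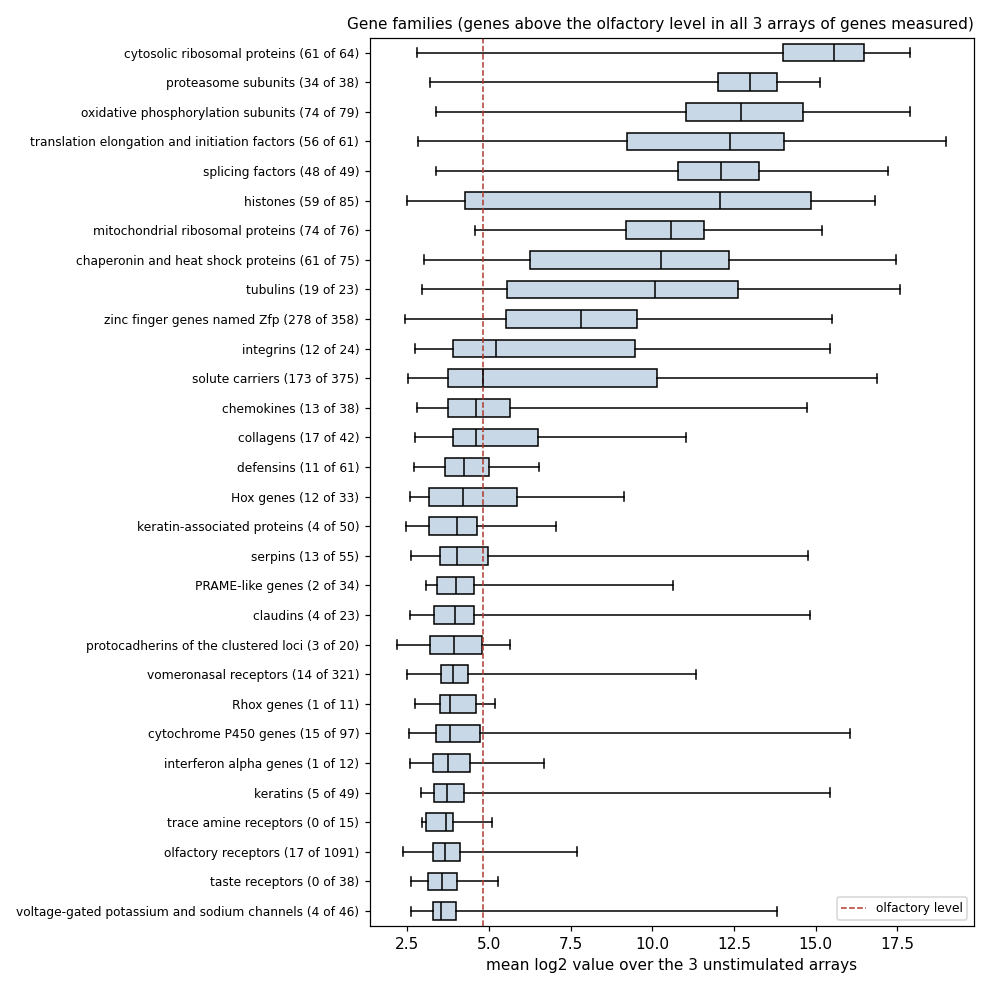
Mean log2 value over the 3 unstimulated arrays (x axis) for the genes of 30 families (rows, ordered by median), with boxes from the 25th to the 75th percentile, black lines at medians, whiskers to the dimmest and brightest gene and the olfactory level as a dashed line. Counts after each name give the genes above the level in all 3 arrays of the genes measured. Cytosolic ribosomal protein genes have the highest median, 15.57, and taste, olfactory and trace amine receptors lie left of the line almost entirely.

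Lineage was read from gene lists. Of 26 measured genes of the ovarian surface and mesothelium, 19 were above the olfactory level, against 51.5% of all probe sets, with a list median of 12.36. After Upk3b came Gpm6a, a membrane glycoprotein gene used as a mesothelial marker, at 17.11, 17.20 and 17.25, the simple-epithelial keratin gene Krt19 at 15.40, 15.36 and 15.58, and Aldh1a1, a retinoic acid-producing enzyme, at 15.79, 15.75 and 14.69. Wt1, the transcription factor of the coelomic epithelium, read 14.33, 14.63 and 15.07, and Cdh2, the N-cadherin gene, 14.60, 14.76 and 13.71. Msln, which encodes the surface protein mesothelin, read 12.70, 12.61 and 13.08. All of these values were more than 7 above the level on each array. Wt1 and Msln were highest in replicate 3 and Aldh1a1 and Cdh2 were lowest there.

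Further members above the level were the gonadal and coelomic transcription factor genes Gata4 (13.77, 13.82 and 15.01), Gata6 (12.39, 12.29 and 13.54), Nr2f2 (11.99 ± 0.19) and Tbx18 (9.37 ± 0.23), the uroplakin gene Upk1b (13.60, 13.81 and 14.67), the podoplanin gene Pdpn (13.98 ± 0.35), Lrrn4 (12.98 ± 0.41) and the epithelial transcription factor gene Bnc1 (8.79 ± 0.60). Lhx9, a gene required for gonad formation in mice, read 6.65 ± 0.29. The members not above the level included Calb2, the calretinin gene used as a mesothelial marker, at 3.86, 3.07 and 3.66, the retinoic acid enzyme gene Aldh1a2 at 4.66, 3.30 and 3.73, and Tcf21 and Lhx2 at 4.24 ± 0.35 and 3.85 ± 0.45. Most, but not all, measured genes of this list were thus above the level. The list was chosen with earlier results of these data known, so its count does not test the label.

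Of the measured genes of the Müllerian duct and oviduct epithelium, 2 of 13 were above the level (15.4%, against 51.5% of all probe sets). Ovgp1, the oviductal glycoprotein gene, read 8.12, 7.11 and 8.66, and Cd24a read 5.77, 5.76 and 5.28. Pax8, the transcription factor used to recognise Müllerian tumours, read 3.72, 3.30 and 4.44, Pax2 read 2.54, 3.01 and 2.70, and Sox17 and Wnt7a read 3.06 ± 0.35 and 4.23 ± 0.22. Both Pax genes lay among the olfactory receptors on every array.

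Epithelial genes were above the level in 15 of 27 cases, near the 51.5% of all probe sets, with keratins, tight junction and desmosome genes on both sides of it. Junction genes led, with F11r, a tight junction adhesion molecule, at 15.84 ± 0.13 and Jup, the plakoglobin of desmosomes and adherens junctions, at 15.72, 15.67 and 15.72. Krt18 read 14.78, 14.77 and 14.73. Krt8, its partner in the filaments of simple epithelia, read 12.93, 13.05 and 13.77, and alpha-catenin, Ctnna1, read 14.09 ± 0.23. Cdh1, the E-cadherin gene, was above the level at 8.88, 8.06 and 8.08, as was the N-cadherin gene. Krt7 straddled the level at 4.70, 4.99 and 4.65. Epcam, the epithelial adhesion molecule, read 3.75, 3.87 and 3.69, and Ocln, Cldn1 and Esrp1, of tight junctions and epithelial splicing, read 3.53 ± 0.41, 3.51 ± 0.03 and 3.17 ± 0.18. Epcam was therefore not above the level on any array, whereas 3 simple-epithelial keratins were far above it on all.

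**Figure D4:**
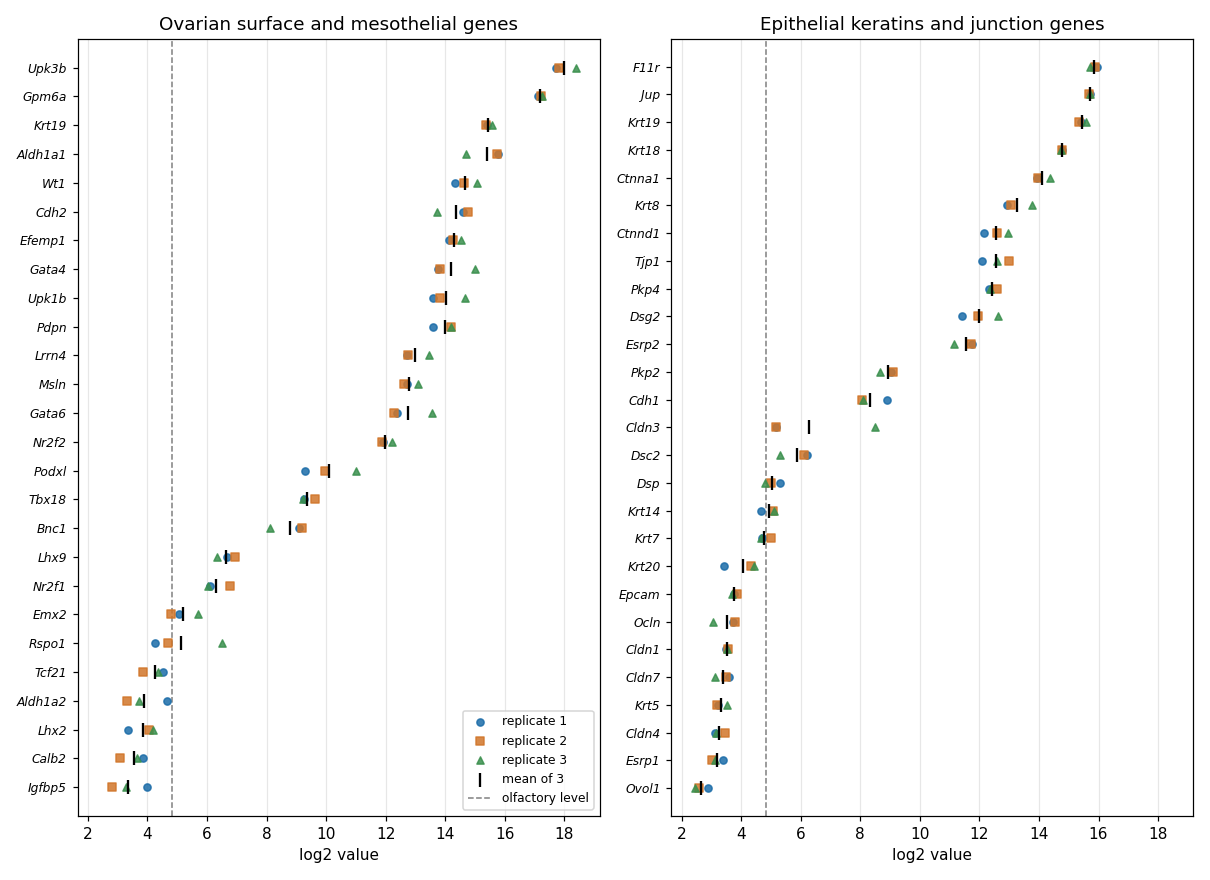
Log2 values (x axis) in each of the 3 unstimulated arrays for 26 ovarian surface and mesothelial genes (left) and 27 epithelial keratin and junction genes (right), rows ordered by mean, with the mean of 3 as a black tick and the olfactory level as a dashed line. Most surface genes, among them Upk3b, Wt1 and Msln, lie right of the line on all 3 arrays, and Calb2, Epcam and most claudins lie left of it.

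Mesenchymal genes were above the level in 13 of 24 cases (54.2%), near the 51.5% of all probe sets. Besides Sparc and Vim these were led by S100a6 (16.64 ± 0.25), the actin-binding Tagln2 (15.59 ± 0.44), the proteoglycan decorin, Dcn (15.34, 15.71 and 15.69), and fibronectin, Fn1 (15.21, 15.46 and 15.38). Of the transcription factors that repress E-cadherin, the further members Snai2 (14.04, 14.11 and 13.62), Zeb1 (10.18 ± 0.31) and Snai1 (5.40 ± 0.30) were above the level. Twist1 and Prrx1 read 3.31 ± 0.25 and 3.02 ± 0.15, and the fibroblast surface genes Thy1 and Pdgfrb read 3.81 ± 0.10 and 4.15 ± 0.14. ID8 cells therefore carried keratin, vimentin and fibronectin signal together.

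Of genes of granulosa and steroid-producing cells, 9 of 20 were above the level (45.0%, against 51.5% of all probe sets). Star, which delivers cholesterol to mitochondria for steroid synthesis, read 12.44, 12.05 and 12.16, and Nr5a1, the transcription factor SF-1 that drives steroidogenic genes, read 12.28, 12.08 and 12.30. Both were alike on the 3 arrays. Cyp11a1 (3.35, 3.66 and 3.41) and Cyp17a1 (3.38, 3.01 and 3.33), which encode enzymes that act after Star, were not above the level. Amhr2, the receptor of anti-Müllerian hormone, read 10.88, 11.48 and 14.11, and its ligand gene Amh read 2.92 ± 0.21. Sox9, a testis and duct transcription factor gene, read 8.50, 8.24 and 12.02, the follistatin gene Fst 11.77, 11.41 and 9.91, and the activin subunit gene Inhba 10.71 ± 0.36. Foxl2, the defining factor of granulosa cells, read 2.48, 2.52 and 2.53. Amhr2 and Sox9 were more than 2.5 higher in replicate 3 than in either other replicate.

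Of 18 pluripotency and germ cell genes, 3 were above the level (16.7%, against 51.5% of all probe sets). They were Gdf9 (6.77 ± 0.25), Nanog (6.52 ± 0.27) and Sycp3 (7.12, 7.04 and 4.95), all by less than 2.5 on the mean. The pluripotency genes Pou5f1 and Sox2 read 3.65 ± 0.47 and 3.19 ± 0.43, and Ddx4 and Kit of germ cells read 4.21 ± 1.15 and 3.95 ± 0.54. Imprinted genes, expressed from 1 parental copy, were above the level in 4 of 14 cases (28.6%). They were Igf2r (12.55 ± 0.39), Peg3 (10.93 ± 0.37), Sgce (8.28 ± 0.37) and, close to the level, Igf2 (5.69, 6.09 and 5.90), while Dlk1, Mest, Cdkn1c and Grb10 had means between 2.91 and 3.78.

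Genes of the Y chromosome bear on the label because the line comes from the ovary. Eif2s3y, Kdm5d, Uty and Usp9y, which most male cells use, read 2.84 ± 0.14, 3.15 ± 0.16, 3.40 ± 0.28 and 3.30 ± 0.54, while their X-linked counterparts Eif2s3x, Kdm5c and Kdm6a read 15.43 ± 0.11, 10.81 ± 0.12 and 14.06 ± 0.09, and Ddx3x read 15.16 ± 0.07. Of all 45 named Y-linked probe sets, 4 were above the level, against 51.5% of all probe sets, with a median of 4.19 over the 45. Ddx3y, Xist and Muc16 were not analysed here.

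Markers of other cell types in the omentum and elsewhere were mostly at the olfactory level, with 3 of 14 for leukocytes, 1 of 16 for macrophages, 2 of 13 for endothelium, 1 of 10 for adipocytes and 1 of 14 for other tissues. Together 8 of these 67 genes were above it (11.9%), against 51.5% of all probe sets. The defining genes Ptprc (CD45) of leukocytes, Adgre1 (F4/80) of macrophages, Pecam1 (CD31) of endothelium and Adipoq of adipocytes had means of 4.20 ± 0.39, 3.85 ± 1.01, 4.55 ± 0.80 and 3.02 ± 0.12. The exceptions were Laptm5 (5.80 ± 0.67), S100a9 (5.24 ± 0.44) and Cd4 (5.22 ± 0.10) of leukocytes, the endotoxin co-receptor Cd14 (7.86, 8.21 and 6.66), the VEGF receptor Flt1 (9.68, 9.94 and 9.71), the adhesion molecule Esam (8.12, 7.62 and 8.24), the lipoprotein lipase gene Lpl (10.75, 10.93 and 12.62) and the synaptic gene Snap25 (8.40, 7.97 and 5.02). Flt1 was alike on the 3 arrays, whereas Snap25 was near the level in replicate 3 alone. These are bulk values of a cultured line, so strong signal from few cells and weak signal from all cells cannot be told apart.

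Secreted factors were described by class. Growth factors and their binding proteins were above the level in 26 of 41 cases (63.4%, against 51.5% of all probe sets). They were led by Igfbp7 (16.69 ± 0.24), progranulin, Grn (14.69 ± 0.41), betacellulin, Btc, a ligand of the EGF receptor (13.95, 13.95 and 13.96), Hdgf (13.64 ± 0.22), Igfbp6 (12.94, 13.23 and 14.37) and Fgf18 (13.16 ± 0.14). Btc had the smallest range of all named genes among the 1000 brightest, 0.01. Vegfa, the angiogenic factor, was a further member at 11.44, 12.14 and 12.72. The hepatocyte growth factor gene Hgf and Egf itself read 2.81 ± 0.23 and 3.57 ± 0.28, and Angpt1 and Fgf7 read 3.44 ± 0.71 and 3.80 ± 0.71.

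Ligands of the TGF-beta, Wnt and hedgehog families were above the level in 24 of 46 cases (52.2%), near the 51.5% of all probe sets. Bmp4 was the brightest at 15.73, 15.89 and 15.57, followed by Tgfb3 (14.24, 14.26 and 13.88), the follistatin-like gene Fstl1 (12.38 ± 0.32), Tgfb2 (12.27 ± 0.12), Gdf6 (12.04 ± 0.40) and the latency protein gene Ltbp3 (11.76 ± 0.48). Grem1, an antagonist of bone morphogenetic proteins, read 8.71, 8.38 and 4.43, above the level in replicates 1 and 2 and under it in replicate 3. Bmp7, Wnt3a, Dkk1 and Sfrp1 had means between 2.55 and 3.55.

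Chemokines and cytokines were above the level in 21 of 54 cases (38.9%, against 51.5% of all probe sets). Csf1, the growth factor of macrophages, was brightest on average at 14.43, 14.79 and 15.45, with Cxcl12, the ligand of CXCR4, at 14.91, 14.70 and 14.58. Mif read 12.78 ± 0.25, Ccl27a 13.23, 12.82 and 11.99, the transmembrane chemokine gene Cxcl16 11.39 ± 0.18 and the leukemia inhibitory factor gene Lif 10.43 ± 0.21. The inflammatory genes Il6 (2.75, 2.61 and 3.86), Tnf (2.85, 2.57 and 2.86), Cxcl1 (4.22, 3.82 and 3.77) and Ccl5 (2.82, 3.57 and 3.62) were not above the level on any array. Ccl6, the chemokine that the study added to the other arm, was itself above the level in the untreated cells at 5.86, 6.80 and 6.53, though by less than 2.

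Matrix genes were above the level in 29 of 52 cases (55.8%), near the 51.5% of all probe sets. Behind Sparc came biglycan, Bgn (15.78 ± 0.09), decorin and fibronectin, then fibulin-2, Fbln2 (14.20 ± 0.30), and the matricellular gene Ccn1 (13.41 ± 0.36). The 6 brightest matrix genes held no fibrillar collagen, and the collagen family gave 17 of 42, with Col6a1 (11.03 ± 0.22), Col1a1 (9.30, 10.09 and 11.22) and Col4a2 (9.56 ± 0.09) in front. Col1a2, whose protein joins that of Col1a1 in type I collagen, read 4.19, 3.90 and 3.63, and Col5a1, Col8a1 and Lum read 4.29 ± 0.28, 2.74 ± 0.05 and 4.16 ± 0.55. Col1a1 and Col1a2 thus lay on opposite sides of the level on all 3 arrays.

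Proteases and inhibitors gave 32 of 47 (68.1%, against 51.5% of all probe sets). They were led by the collagen cross-linking enzyme Lox (15.65 ± 0.14), the inhibitors Timp2 (15.51 ± 0.19) and Timp3 (15.37 ± 0.11), cathepsin B, Ctsb (14.98 ± 0.10), cystatin C, Cst3 (14.71 ± 0.30), and Serpinb6a (14.58 ± 0.35). The gelatinase genes Mmp2 and Mmp9 read 4.32 ± 0.70 and 3.10, 3.26 and 3.50, and Mmp7 and Ctsk read 3.93 ± 0.45 and 4.14 ± 0.41. Lox's relative Loxl1 varied widely, at 8.89, 9.68 and 12.69. Complement, lipid carrier and lectin genes gave 9 of 23 (39.1%), with galectins Lgals1, Lgals9 (14.62 ± 0.24) and Lgals3 (12.77, 12.85 and 11.30), clusterin, Clu (15.57 ± 0.46), the complement protease C1s1 (12.68 ± 0.17) and the phospholipid transfer protein Pltp (11.06 ± 0.34). Wfdc2, the mouse gene for the ovarian cancer marker HE4, read 3.54 ± 0.17, and Lcn2, C2 and Saa3 read 3.82 ± 0.60, 3.38 ± 0.30 and 4.02 ± 0.32.

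At the cell surface, receptor tyrosine kinases were above the level in 29 of 47 cases (61.7%, against 51.5% of all probe sets). They were led by the Wnt co-receptor Ryk (15.05 ± 0.09), the Gas6 receptor Axl (15.14, 15.17 and 14.67), Epha2 (13.00, 12.96 and 14.13), Ror1 (12.76 ± 0.22), Ptk7 (12.60 ± 0.43) and Met (12.05, 12.08 and 11.97), the receptor of hepatocyte growth factor. Met was thus bright and its ligand gene Hgf was not above the level. Csf1r, the receptor of Csf1, was likewise not above it at 3.07, 3.03 and 2.96, nor were Kdr (3.53 ± 0.75), Kit and Flt3 (2.87 ± 0.18).

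Adhesion genes gave 32 of 54 (59.3%, against 51.5% of all probe sets). After Cd81 came basigin, Bsg (17.40 ± 0.15), the tetraspanins Cd151 (15.71 ± 0.15) and Cd82 (15.27 ± 0.12), and the integrin subunits Itgb1 (15.22, 15.53 and 15.56) and Itga3 (15.15, 15.24 and 15.37), which pair to bind laminin. The integrin family by symbol gave 12 of 24, near the share of all probe sets. The leukocyte integrin subunits Itgam, Itgax and Itgal read 3.17 ± 0.20, 2.73 ± 0.26 and 3.93 ± 0.46, and L1cam read 3.44 ± 0.21. Vcam1, a ligand of leukocyte integrins, read 10.81, 10.55 and 7.33, lower in replicate 3 by more than 3.

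Receptors of chemokines and other chemoattractants were above the level in 10 of 44 cases, against 51.5% of all probe sets. The thrombin receptor gene F2r stood out at 13.74, 13.70 and 13.79, followed by the lysophosphatidic acid receptor genes Lpar6 (10.35, 10.65 and 9.76) and Lpar2 (8.83 ± 0.15), the sphingosine phosphate receptor genes S1pr5 (9.51, 8.83 and 11.04) and S1pr2 (7.23 ± 0.29), and Ccr7 (6.79, 6.95 and 8.10). Ccr1, a known receptor of CCL6, read 3.08, 3.69 and 2.97, so that 2 of its 3 values lay under the olfactory median of 3.66. Cxcr4, Ackr3 and Ccr2 read 3.82 ± 0.26, 2.93 ± 0.15 and 3.02 ± 0.66. Cxcl12 was therefore bright while both of its receptor genes, Cxcr4 and Ackr3, were not above the level. A value at this level does not show that a gene was off or that its protein was absent. The study itself detected CCR1 transcript in ID8 cells by quantitative RT-PCR. In its hands CCL6 did not induce migration of ID8 cells with CCR1 deleted.

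Cytokine, TGF-beta, Wnt and Notch receptors gave the highest surface count, 49 of 60 (81.7%, against 51.5% of all probe sets). They were led by Tnfrsf12a (14.42 ± 0.36), the receptor of TWEAK, Il6st (13.79 ± 0.16), the signalling chain shared by interleukin-6-type cytokines, Bmpr2 (13.06 ± 0.48), Plxnb2 (13.01 ± 0.27), Ltbr (12.96 ± 0.10) and Tnfrsf1a (12.50 ± 0.21), a receptor of TNF. Receptor chains for interleukin-6-type and TNF ligands were thus bright. Il6 and Tnf themselves were not above the level, whereas Lif, another interleukin-6-type cytokine gene, was above it. Notch1, Notch4, Dll4 and Tgfbr3 had means between 3.08 and 3.88.

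Antigen presentation genes gave 14 of 29 (48.3%), near the 51.5% of all probe sets. B2m, the light chain of MHC class I, read 16.44, 16.54 and 15.99, its loading chaperone Tapbp 14.99 ± 0.16, the classical heavy chain gene H2-K1 12.73, 12.57 and 11.65, the NKG2D ligand gene Ulbp1 11.98, 12.22 and 12.77 and the checkpoint molecule Cd276 11.93 ± 0.17. Heavy chain genes of MHC class I resemble each other, and their probes may share signal. The class II genes H2-Ab1, H2-Aa and H2-Eb1 and the immunoproteasome gene Psmb9 had means between 3.80 and 4.49. Cd274, which encodes PD-L1, was a further member at 5.96, 6.12 and 5.22.

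Cell programs were above the level in larger shares than identity genes, with 270 of 306 measured genes of the program lists (88.2%), against 67 of 151 lineage genes (44.4%), 8 of 67 marker genes of other cells (11.9%) and 51.5% of all probe sets. The lineage share lay near that of all probe sets. Oncogenes and tumour suppressors gave 29 of 33, led by Cdk4 (16.36 ± 0.15), the kinase inhibitor gene Cdkn1a (16.28, 16.40 and 15.18), the p53 antagonist gene Mdm2 (15.66 ± 0.29), Myc (14.41, 14.22 and 15.34) and the D cyclins Ccnd3 (14.34 ± 0.51) and Ccnd2 (14.16 ± 0.24). The 4 members not above the level were Cdkn2a (3.28, 2.32 and 2.57), which encodes p16 and p19 Arf, its neighbour Cdkn2b (3.77, 3.97 and 2.85), Mycl (4.38 ± 0.21) and Mycn (3.53 ± 0.85). p53 target genes gave 20 of 22, with Ccng1 at 17.30, 17.33 and 16.57 as the brightest and the apoptosis genes Bbc3 (4.08 ± 0.33) and Pmaip1 (4.69 ± 0.53) not above the level.

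After 24 h without serum, all 37 measured genes of cell cycle and DNA replication were above the level on each array. The series holds no array of serum-fed cells, so whether starvation changed these genes was not tested. The replication clamp gene Pcna read 15.18, 15.49 and 15.94, the ribonucleotide reductase gene Rrm1 14.05, 14.36 and 14.70, the proliferation marker Mki67 13.45, 13.89 and 14.87, the mitotic kinase gene Plk1 13.36, 13.58 and 14.85, Ccnb2 13.17, 13.09 and 14.12 and Nusap1 13.16, 13.30 and 13.89. All 6 were highest in replicate 3. Genes of quiescence and FOXO activity were above the level as well in 20 of 22 cases, led by Txnip (14.64 ± 0.30), Ccng2 (14.55 ± 0.45), Ddit4 (13.65 ± 0.24), Cdkn1b (12.92 ± 0.18), Tob1 (12.33 ± 0.38) and Btg1 (12.22 ± 0.32).

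Genes of cholesterol and fatty acid synthesis were all above the level, 23 of 23, at the highest median of any list, 14.77. The synthase gene Hmgcs1 read 16.74, 17.05 and 17.50, Nsdhl 16.86 ± 0.17, the sterol-responsive transcription factor gene Srebf2 16.54, 16.49 and 16.44, Cyp51 16.33 ± 0.17 and Sc5d 16.25 ± 0.18. Glycolysis and hypoxia genes gave 25 of 27, with Pkm, Aldoa and Pgk1 at 17.36 ± 0.13, 17.09 ± 0.08 and 16.86 ± 0.19, Ldha at 15.97 ± 0.54 and the glucose transporter gene Slc2a1 at 15.63 ± 0.38, while Adm read 2.96 ± 0.28.

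Stress response genes gave 27 of 29, with Hspa5, Slc3a2, Asns (16.57 ± 0.15), Psat1 (15.74 ± 0.29) and Atf4 (15.64 ± 0.13), the transcription factor of the integrated stress response, and Ppp1r15a (3.25 ± 0.08) as the one member with a mean under the level. Immediate early genes gave 24 of 28, led by Ier3 (14.88 ± 0.16), Myc, Dusp1 (14.44 ± 0.10), Jund (14.14 ± 0.14), Klf4 (12.45 ± 0.27) and Klf6 (12.32 ± 0.21), with Arc and Nr4a3 at 2.58 ± 0.17 and 3.63 ± 0.53. Clock genes gave 13 of 18 (72.2%, against 51.5% of all probe sets), with Bhlhe40 (14.81 ± 0.27), Clock (13.89 ± 0.21) and Dbp (14.32, 14.36 and 12.08) the brightest. Interferon-stimulated genes gave 21 of 33 (63.6%), with Ifitm2 (16.54 ± 0.03), Isg20 (13.21 ± 0.54) and Irgm1 (11.63 ± 0.36) above the level and Rsad2, Oas2, Oas3 and Irf7 between 2.86 and 4.11 on the mean.

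Actin and motility genes gave 40 of 43, with a median of 14.29. After Actb these were profilin, Pfn1 (17.43 ± 0.08), the small GTPase Rac1 (17.32 ± 0.23), thymosin beta-4, Tmsb4x (17.27 ± 0.43), the myosin light chain Myl12a (16.85 ± 0.19) and ezrin, Ezr (16.67 ± 0.25). Of the genes that the study followed, Cfl1, the cofilin that severs actin filaments, read 16.53, 16.64 and 16.25, and Myh9, the non-muscle myosin heavy chain, 14.62, 14.92 and 14.26. Limk1, the kinase of cofilin, read 10.14, 9.03 and 9.83. Myo9a, an unconventional myosin, read 6.23, 9.44 and 6.55, so that replicate 2 lay more than 2.5 above both others. Its baseline mean of 7.41 ± 1.77 therefore had a spread that Cfl1 and Myh9 did not have.

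Spread between the arrays was smallest among the brightest genes. The median SD was 0.17 for the 100 brightest genes, 0.24 for the next 900, 0.34 for the other genes above the level and 0.34 for genes not above it. A range of 1 or more was met by 1 of the 100 brightest genes, Rmrp, by 12.1% of the next 900, by 25.5% of the other genes above the level and by 22.8% of genes not above it. The steadiest 10 named genes of the 1000 brightest, from Btc to Tsc22d1 (17.44 ± 0.03), had ranges of 0.01 to 0.05 and included Tax1bp3 (14.19, 14.18 and 14.18), Kcmf1 (14.47, 14.46 and 14.44), the histone methyltransferase gene Kmt5a (16.39, 16.37 and 16.36), Uso1, Ostc, Hnrnpul1, Elovl1 and Slc48a1.

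Replicate 3 stood apart from the other arrays. Over the 12268 probe sets with a mean above the level, replicates 1 and 2 differed by 1 or more for 532 probe sets (4.34%), replicates 1 and 3 for 2286 (18.6%) and replicates 2 and 3 for 2143 (17.5%). The Pearson correlation across these probe sets, which are not independent, was 0.987, 0.964 and 0.966 in the same order. Replicate 3 lay more than 1 above both others for 739 probe sets and more than 1 below both for 633, against 65 and 143 for replicate 1 and 117 and 53 for replicate 2. Without a minimum, replicate 3 was above both others in 41.4% of these probe sets and below both in 39.6%. The means of single genes moved with it, so that without replicate 3 Iqgap3 averaged 7.12 and not 8.69, Clec2d 8.81 and not 7.26, and Phf20 10.72 and not 9.28. Without replicate 3, the median SD of the probe sets above the level was 0.18, from a pair of arrays, against 0.33 over the 3. The labels name no batch, and what set replicate 3 apart was not tested.

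Among the 20 named genes with the largest range and a mean above the level, replicate 3 was the highest of the 3 for 8 and the lowest for 12. The IQGAP family gene Iqgap3 had the largest range, at 6.19, 8.05 and 11.82. Other genes that were highest in replicate 3 were Angptl7 (6.74, 8.36 and 11.40), the retinoblastoma-like gene Rbl1 (7.24, 7.39 and 11.09), Med16 (6.18, 6.49 and 9.84), Igsf9 (7.21, 7.25 and 10.79) and Uhrf1 (9.75, 10.29 and 13.21), which maintains DNA methylation at replication, together with Loxl1 and Sox9. Genes that were lowest there included Phf20 (9.66, 11.79 and 6.40), the complement protease gene Masp1 (10.34, 10.52 and 5.68), Phf11c (9.43, 10.09 and 5.35), the C-type lectin gene Clec2d (8.75, 8.86 and 4.17), Rnf25 (9.98, 11.20 and 7.42), Akap13 (8.82, 9.52 and 5.83) and Ttc41 (9.62, 8.99 and 6.15), together with Grem1, Vcam1 and Snap25. Zfp850 (6.33, 8.23 and 4.70) and Wdr17 (7.52, 7.24 and 4.08) made up the 20. In 19 of the 20 replicate 3 was the array farthest from the median of the 3.

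By list, the departure of replicate 3 had a direction. For cell cycle and replication genes it was above both others in 36 of 37, beside 41.4% of all probe sets, and the list's genes lay on average 0.85 above their own 3-array mean in replicate 3, and at -0.53 and -0.32 in replicates 1 and 2. Histone genes, whose main copies are transcribed in S phase, were above both in 48 of 60, at 0.39 in replicate 3. Splicing factor genes were above both in 28 of 48, ovarian surface genes in 15 of 21, and hypoxia and glycolysis genes in 17 of 26. So were integrin family genes in 9 of 13, cholesterol and fatty acid synthesis genes in 14 of 23 and growth factor genes in 17 of 28.

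In the other direction, cytosolic ribosomal protein genes were below both other arrays in replicate 3 for 52 of 61, at -0.27 on average. Complement and lectin genes were below both in 10 of 11 (-0.43), antigen presentation genes in 13 of 18 (-0.34), interferon-stimulated genes in 12 of 21 (-0.29) and p53 targets in 12 of 20 (-0.25). The chemokine family was below both in 11 of 17 (-0.41) and the cytochrome P450 family in 12 of 20 (-0.25). The shares of these lists lay above the background of 39.6%, by a wide margin for ribosomal protein and complement genes. The mean over all 12268 probe sets was at 0.02 in replicate 3. Genes of 1 list vary together, so that a list is 1 observation of 3 arrays and not many. Serpin genes had the lowest replicate 3 value, -0.63, and were below both in 14 of 17. Actin and motility genes, at 0.05, were close to their 3-array mean in replicate 3.

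**Figure D5:**
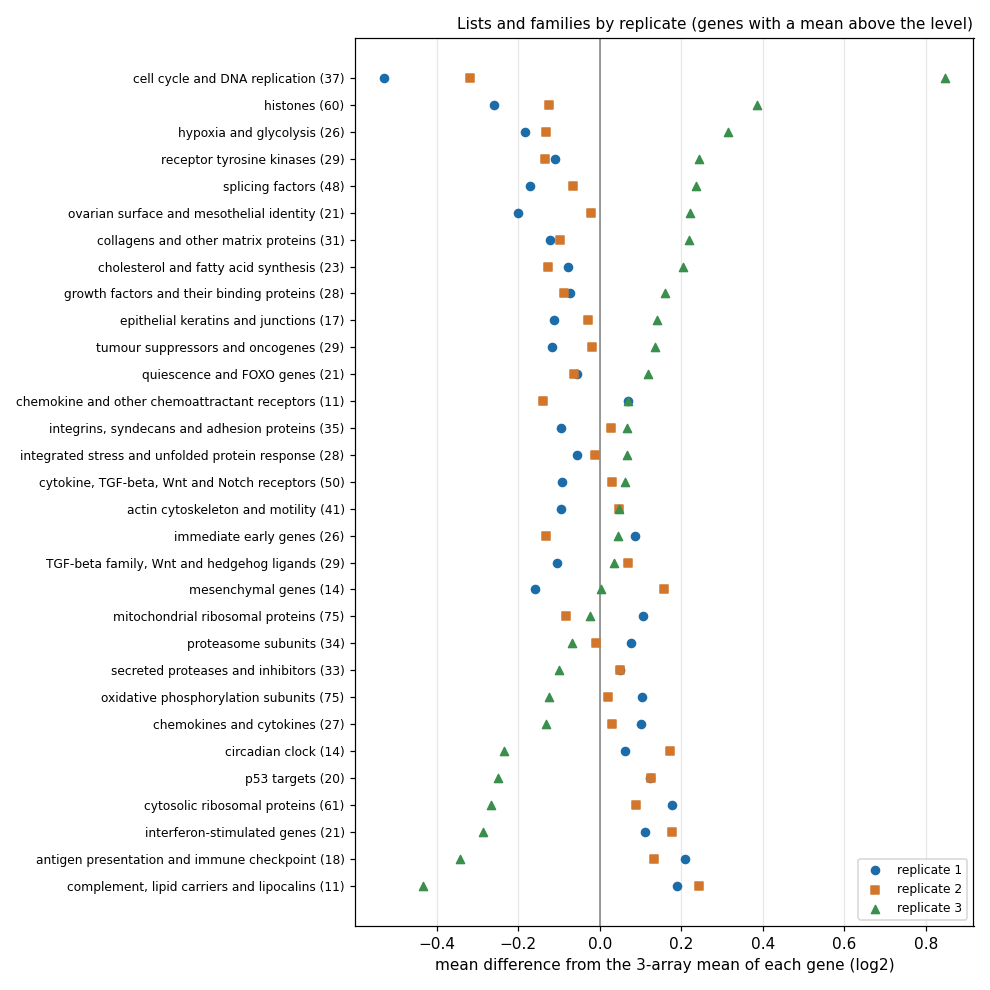
Mean difference of each array from the genes' own 3-array mean (x axis, log2) for groups with 10 or more genes whose mean was above the olfactory level (rows, number of genes in brackets, ordered by replicate 3). Rows are gene lists and the families of cytosolic and mitochondrial ribosomal proteins, histones, oxidative phosphorylation subunits, splicing factors and proteasome subunits. Replicate 3 departs in both directions, with cell cycle genes at 0.85 and complement, lipid carrier and lipocalin genes at -0.43, while replicates 1 and 2 lie near each other for most rows.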

How the data were processed

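RNA of the 3 unstimulated samples was measured on 1 Clariom S mouse array each. The authors deposited log2 values made by robust multi-array average (RMA, per the submitters' processing notes), which corrects background, equalises the arrays of a series and summarises the probes of a set, so that each value may also draw on the other 3 arrays. Details of RMA software and version, genome build and filters are not given in the sources used here. No source states the log base either, and base 2 follows from how far the values reach.

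The level, means, SDs, ranks and counts were computed with Python 3.11.15, numpy 2.4.6 and pandas 2.3.3, figures were drawn with matplotlib 3.10.9, and the code was tested on simulated data. Symbols came from the platform annotation, and 19572 of 22206 probe sets had 1. Promoters came from RefSeq (GRCm38.p6), and protein lengths were not used. The 35 gene lists (1032 measured entries for 992 genes, 39 genes in more than 1 list) and 30 families were chosen with earlier results of these data known. Named genes were the 30 brightest, up to 6 brightest and 4 dim members of a list, lineage markers, genes the study followed, the brightest of each family, and the 20 largest and 10 smallest ranges. Predicted genes were counted but not named. With 1 group, nothing was tested between groups.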

Additional observations from a re-analysis of the deposited data

How the results depend on the processing

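With the level at the 99th percentile of the olfactory receptor genes it was 5.41, and at the 90th it was 4.57, against 4.83. The probe sets above it then numbered 10530 and 11955, against 11429, and list members 585 and 662, against 631. Further alternatives added vomeronasal and taste receptors, used the mean of 3 arrays in place of each array, or repeated quantile normalization or median centring. The probe sets above the level then numbered 11328 to 12268 and list members 626 to 677. Of the 19572 named probe sets alone, 10333 were above the level (52.8%), with 631 list members. Of the 100 brightest genes, 97 to 100 stayed among the 100 brightest when normalization or the average changed, and 95 when any 1 array was left out. The median SD of probe sets above the level was 0.33 over 3 arrays. It ranged from 0.18 (without unstimulated replicate 3) to 0.32 (without unstimulated replicate 2) over pairs of arrays, for which an SD is smaller by construction. Without any 1 array, 11377 to 11755 probe sets and 628 to 648 list members were above the level. Of 350 list counts under these alternatives, 343 stayed within 1.5 times the count given and 7 did not, all of them counts of 5 or less. At the 99th percentile 0 leukocyte genes and 1 Müllerian gene were above the level. The means of 69 named genes moved by less than 1 SD with either normalization repeated. Leaving out 1 of 3 arrays cannot move a mean by 1 SD, and without replicate 3 the mean of Iqgap3 was 7.12 against 8.69, that of Clec2d 8.81 against 7.26 and that of Phf20 10.72 against 9.28. The number of arrays limits the precision, and a dim probe set is not evidence that a transcript was missing. No paired analysis was possible because only 1 group was described.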

Other observations

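The 2634 probe sets that are unnamed here were above the olfactory level in 1096 cases (41.6%), beside 52.8% of named probe sets. By type of gene, 10227 of 19174 named probe sets of protein-coding genes were above the level (53.3%). For long noncoding RNA genes it was 51 of 243 probe sets (21.0%), and for transcribed pseudogenes 49 of 139 (35.3%).

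Of the named probe sets, 51 had the same 3 values, to every digit deposited, as another named probe set. They carried 46 symbols, of which 6 were histone genes, and values of such genes do not count as separate measurements.

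The number of probe sets above the level on a single array was 12577 in replicate 1, 12342 in replicate 2 and 12514 in replicate 3, so that the count of replicate 3 lay between the others. Array medians were 5.49, 5.46 and 5.48.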
